A study of Danio rerio with 6 samples.

Results

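The slc2a genes encode the facilitative sugar transporters (GLUTs) and were examined in the liver of the zebrafish, Danio rerio, at the larval age of 7 days post fertilization. Larvae with a foxn3 transgene formed one group and siblings of wild type the other, each with 3 libraries of total RNA. The gene foxn3 encodes a forkhead-box transcription factor. Members were chosen by name alone: every gene of the deposited table whose symbol begins with slc2a and a digit, which gave 17 of 21589 genes. Of these, 16 are transporters, and slc2a4rg is named after a regulator of the human SLC2A4 gene and is not a transporter. The naming rule itself uses no measured value. The labels do not state which foxn3 sequence the transgene carries, which promoter drives it, how many transgenic lines were used or how many larvae were pooled per library. Nor do they say whether separate clutches stand behind the libraries of each group, so p-values measure only the spread between these libraries, which may be technical.

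Most GLUT proteins pass sugars across membranes down their concentration gradient, without using energy or a sodium gradient. The proton-coupled myo-inositol carrier SLC2A13 is an exception. In the vertebrate liver GLUT2, the product of slc2a2, is the main route by which hepatocytes take up and release glucose, and its low affinity lets the flux follow the blood glucose level. By sequence the family falls into a class of glucose carriers (slc2a1 to slc2a4), a class around the fructose carrier slc2a5 and the urate carrier slc2a9, and a class with many intracellular members (slc2a6, slc2a8, slc2a10, slc2a12 and slc2a13).

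Total counts per library lay between 7732478 and 12550954, and the slc2a entries took 0.0721% to 0.0894% of the counts in transgenic libraries and 0.0863% to 0.0897% in wild-type libraries. The tissue label was checked with 8 hepatocyte marker genes, which took 4.47% to 5.9% of the counts in transgenic libraries and 4.54% to 6.25% in wild-type libraries. Of the 8, 6 had a positive log2 fold change (transgenic over wild type) and 2 a negative one. In edgeR 1 of them, cp, had an unadjusted p below 0.05, beside 2.25% of all genes tested. Its log2 fold change was -0.85 ± 0.27 (SE), and it did not pass the adjusted threshold. The transgene was visible as foxn3 counts of 1983, 2206 and 2540 in transgenic libraries, against 304, 246 and 322 in wild-type libraries. Reads of the transgene and of the native gene cannot be told apart here. Exocrine pancreas markers were the clearest sign of other tissue, with 0.406%, 0.939% and 0.661% of the counts in transgenic libraries 1 to 3 and 0.264%, 0.589% and 0.301% in wild-type libraries 1 to 3. All 13 of these entries had a positive log2 fold change, with a median of 0.90, beside 50.6% positive of all genes tested. In edgeR 5 of the 13 had an unadjusted p below 0.05, beside 2.25% of all genes tested, with 0 past the adjusted threshold.

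Levels of different genes were compared in FPKM, the authors' counts scaled to exon length and library total. slc2a2 stood far above the other members. It was listed at 250.05, 242 and 200.04 FPKM in transgenic libraries 1 to 3, against 249, 239 and 259 FPKM in wild-type libraries 1 to 3. Its mean over the 6 libraries, 239.85 FPKM, ranked 376 among all genes. Within single libraries its FPKM was 22.9 to 45.0 times that of slc2a8, the next member. slc2a2 made up 85.5% to 88.8% of the summed FPKM of the 16 transporters in transgenic libraries and 85.5% to 90.2% in wild-type libraries. The summed FPKM of the other 15 transporters was 41.0, 30.6 and 34.0 in transgenic libraries, against 38.3, 40.4 and 28.1 in wild-type libraries, so the groups overlapped.

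Below slc2a2 the levels formed a gradual series. Mean FPKM over the 6 libraries was 6.95 for slc2a8, 6.45 for slc2a1b, 4.55 for slc2a3, 4.51 for slc2a4rg, 4.48 for slc2a12, 3.49 for slc2a5 and 2.48 for the SLC2A13 entry on chromosome 25. Most neighbours in this order differed in mean by less than their ranges over libraries. Next came slc2a10 with 1.06 FPKM, the last of 9 entries with a mean of at least 1 FPKM. The other 8 had means of 0.973 FPKM (slc2a15b), 0.945 (the SLC2A13 entry on chromosome 16), 0.796 (slc2a11l), 0.685 (slc2a1a), 0.655 (slc2a15a), 0.653 (slc2a9l1), 0.639 (slc2a11b) and 0.602 (slc2a6, rank 19352). Of the 16 neighbouring pairs in this order, 2 had ranges over the 6 libraries that did not overlap. One was slc2a2 over slc2a8, where the lowest library of slc2a2 (200.04 FPKM) was above the highest of slc2a8 (8.73 FPKM). The other was SLC2A13 on chromosome 25 over slc2a10, with 1.59 FPKM against 1.36 FPKM. The order of the other 14 pairs was not resolved by these libraries.

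**Figure D1:**
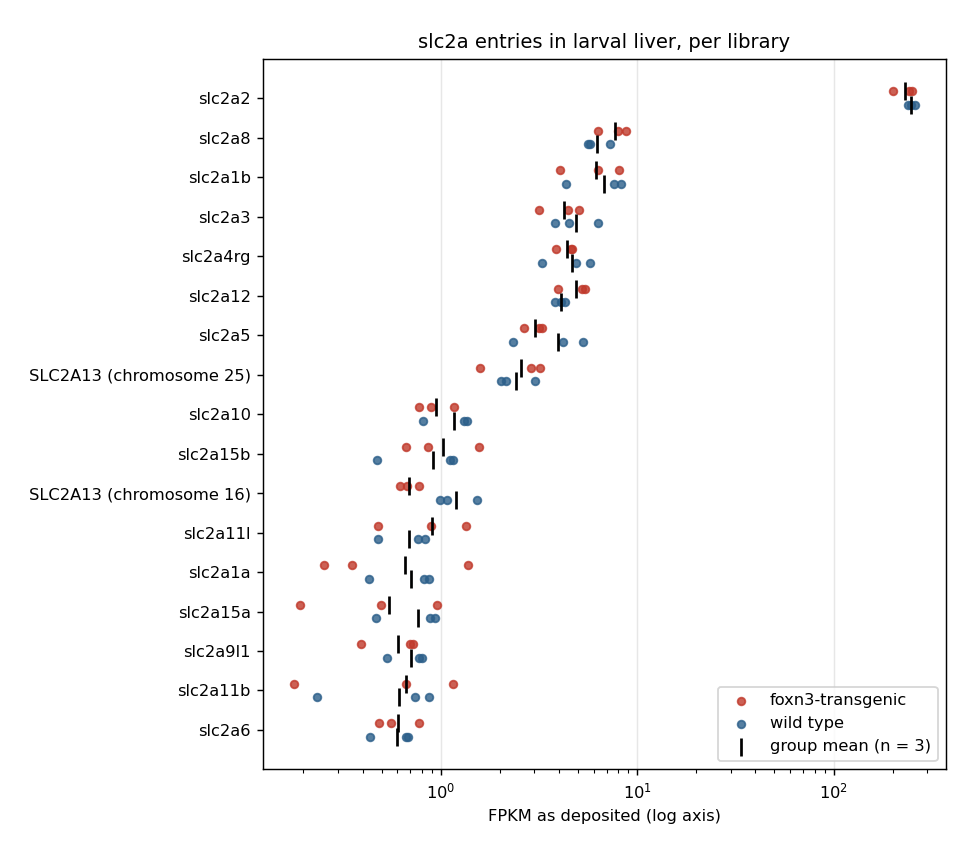
Deposited FPKM (log axis) of the 17 slc2a entries in each library, ordered by their mean, with foxn3-transgenic livers above wild-type livers and a vertical mark at each group mean (n = 3). slc2a2 lies between 200.04 and 259 FPKM in all 6 libraries, and every other entry lies below 9 FPKM.

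Between groups, levels were compared as CPM, counts relative to the TMM-scaled library total, with edgeR's quasi-likelihood test. All 17 entries passed the filter on low counts and were tested among 19573 genes. No entry passed an adjusted p of 0.05, and the share over all genes tested was 0%. foxn3, with the smallest p of all genes tested, had a log2 fold change of 2.74 ± 0.30 (SE). Its adjusted p in edgeR was 0.112, so this test did not call that difference either. At an unadjusted p below 0.05 there was 1 entry of 17 (5.88%), SLC2A13 on chromosome 16, beside 2.25% of all genes tested (441 genes). With DESeq2 and with limma on the FPKM values no slc2a entry passed either, and with DESeq2 1 gene of the table did, foxn3 itself. CPM did not overlap between the groups for 3 entries. The transgenic libraries were the higher ones for slc2a8 and slc2a12 (2 entries, beside 3.31% of all genes tested) and the lower ones for SLC2A13 on chromosome 16 (1 entry, beside 3.15%). These counts rest on 1 or 2 entries each. The log2 fold change (transgenic over wild type) was positive for 7 entries and negative for 10, with a median of -0.03, against 0.004 over all genes tested, of which 50.6% were positive. In the authors' deposited table the log2 ratios of the entries ran from -0.56 to 0.28, with an adjusted p of 1.0 for each. There foxn3 had a log2 ratio of 2.10, against 2.74 in edgeR, and its adjusted p was 7.79e-15 in the authors' DESeq2 comparison. The ratio of SLC2A13 on chromosome 16 was also smaller in size there, -0.56 against -0.75 in edgeR.

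**Figure D2:**
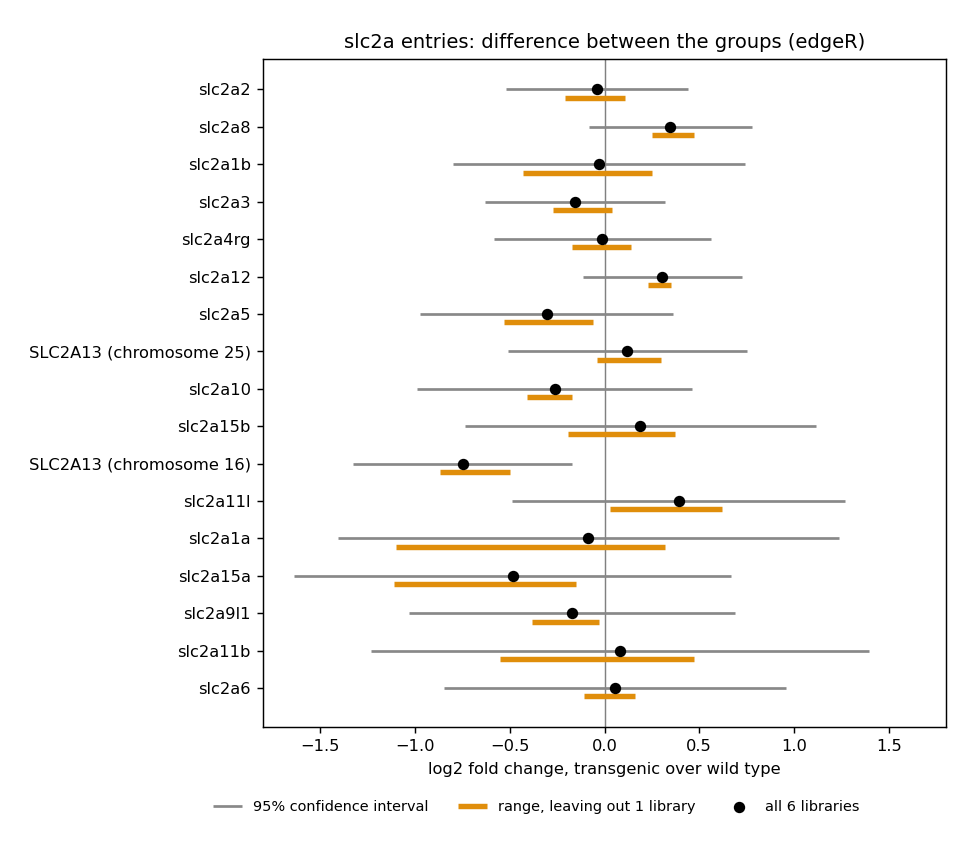
Log2 fold change, transgenic over wild type, of each slc2a entry from edgeR, with its 95% confidence interval (grey) and the range of the estimates when each library was left out in turn (orange). 16 of the 17 intervals include 0, and the interval of SLC2A13 on chromosome 16 lies below it.

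The confidence intervals give the size of change that these libraries could not resolve. For 10 entries the interval stayed within a log2 fold change of 1 in either direction. The interval of slc2a2, a fold of 0.697 to 1.36, was among the narrower ones. For 8 entries at least 1 library held fewer than 20 counts. One of them, slc2a1a, with 28, 8 and 5 counts in transgenic libraries and 17, 18 and 6 in wild-type libraries, had an interval of -1.40 to 1.24.

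Among the glucose carriers of the first class, slc2a2 (GLUT2) had 762, 909 and 598 CPM in transgenic libraries 1 to 3, against 768, 713 and 851 CPM in wild-type libraries 1 to 3. On this scale both the highest and the lowest library were transgenic, and the groups overlapped. In FPKM, without TMM scaling, the highest was wild-type library 3, at 259 FPKM. Means were 756 ± 155 CPM in transgenic livers and 777 ± 69.1 CPM in wild-type livers (SD, n = 3 each). At 6355 to 9662 counts per library, counting error was about 1.097% of the level. The coefficient of variation of CPM over the libraries was 14.1%, so the spread between libraries set the precision. That spread depended on the scaling: the SE of the log2 fold change was 0.214 with TMM and 0.144 with the library total alone. In bulk tissue, fewer cells of a type and less RNA per cell cannot be told apart. In mammals the GLUT2 gene is also active in pancreatic beta cells. Islet markers took 0.00217%, 0.00906% and 0.00714% of the counts in transgenic libraries and 0.00154%, 0.00336% and 0.00248% in wild-type libraries. Of 9 islet entries tested, 7 had a positive log2 fold change, with a median of 1.43. In edgeR 5 of the 9 had an unadjusted p below 0.05, all 5 of them positive, beside 2.25% of all genes tested. The insulin gene ins averaged 26.3 ± 22.5 CPM in transgenic livers and 2.57 ± 3.13 CPM in wild-type livers (SD, n = 3 each). No islet entry passed an adjusted p of 0.05 in edgeR. Their part in the slc2a2 level was not tested.

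**Figure D3:**
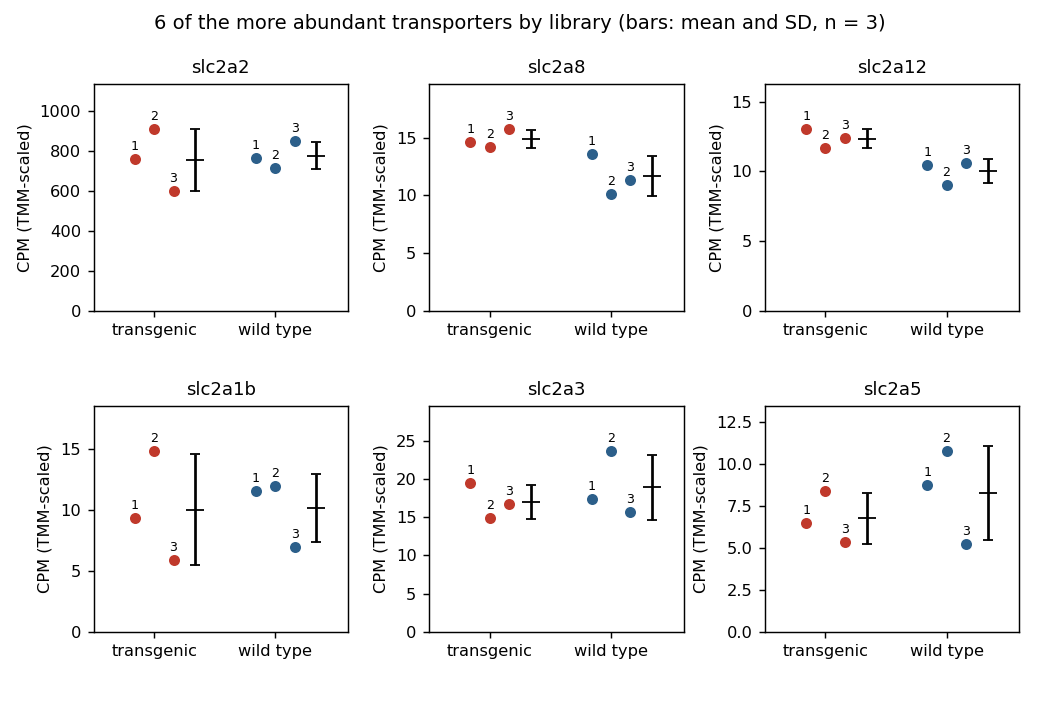
TMM-scaled CPM of 6 of the more abundant transporters, with foxn3-transgenic libraries (red) left of wild-type libraries (blue), library numbers above the points, and bars for the mean and SD of 3 libraries. The transgenic points lie above all wild-type points for slc2a8 and slc2a12 and are intermixed with them in the other 4 panels.

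The fish genome holds a pair of slc2a1 genes, whose mammalian counterpart encodes GLUT1, the carrier of erythrocytes and of the blood-brain barrier. slc2a1b had 9.37, 14.9 and 5.88 CPM in transgenic libraries, against 11.5, 12.0 and 6.96 CPM in wild-type libraries. Transgenic libraries 2 and 3 were its highest and lowest, so the spread within that group covered the wild-type values. slc2a1a had 2.36, 0.752 and 0.432 CPM in transgenic libraries, against 1.52, 1.38 and 0.803 CPM in wild-type libraries. The groups again overlapped, and the log2 fold changes were -0.03 ± 0.34 for slc2a1b and -0.08 ± 0.59 for slc2a1a (SE). In FPKM slc2a1b was above slc2a1a in 6 of 6 libraries, with ratios from 4.59 to 22.9 and a median of 10.03. Erythrocyte markers took 0.0135%, 0.0282% and 0.0284% of the counts in transgenic libraries and 0.0103%, 0.029% and 0.0245% in wild-type libraries. Their part in the slc2a1b level was not tested.

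slc2a3, whose mammalian counterpart is the high-affinity carrier of neurons, had 19.4, 15.0 and 16.7 CPM in transgenic libraries, against 17.4, 23.7 and 15.7 CPM in wild-type libraries. Wild-type library 2 was the highest, and the other libraries were intermixed. The log2 fold change was -0.16 ± 0.21 (SE). The reference table names a second gene, slc2a3b, for an ID that the deposited table lists under a clone name. It was outside the naming rule and lay lower, at 0.345 to 1.14 FPKM, and slc2a3 exceeded it 3.91-fold to 9.21-fold within libraries. No entry found by the rule carries the name slc2a4, the insulin-regulated carrier of mammalian muscle and fat. slc2a4rg, the regulator, had 5.404, 7.90 and 6.40 CPM in transgenic libraries, against 6.88, 7.85 and 4.95 CPM in wild-type libraries, with a log2 fold change of -0.01 ± 0.26 (SE). The groups overlapped.

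Of the class with many intracellular members, slc2a8 and slc2a12 had the highest levels, and both lay higher in every transgenic library on the CPM scale. slc2a8 encodes GLUT8, which in mammals resides on internal membranes. It had 14.7, 14.2 and 15.7 CPM in transgenic libraries, against 13.6, 10.2 and 11.4 CPM in wild-type libraries. The lowest transgenic library was just above the highest wild-type library. Means were 14.9 ± 0.785 CPM in transgenic livers and 11.7 ± 1.73 CPM in wild-type livers (SD, n = 3 each). In edgeR the log2 fold change of slc2a8 was 0.35 ± 0.19 (SE), its interval -0.08 to 0.78, its unadjusted p 0.10 and its adjusted p 1.0. In FPKM, which lacks the TMM scaling, the groups overlapped, with 6.29 FPKM in transgenic library 2 below 7.30 FPKM in wild-type library 1.

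slc2a12 encodes GLUT12, a glucose carrier that in mammals moves between internal membranes and the cell surface. It had 13.0, 11.7 and 12.4 CPM in transgenic libraries, against 10.4, 9.001 and 10.6 CPM in wild-type libraries. All transgenic values were above all wild-type values, by about 1 CPM at the closest. Means were 12.3 ± 0.671 CPM in transgenic livers and 10.01 ± 0.874 CPM in wild-type livers (SD, n = 3 each). In edgeR the log2 fold change of slc2a12 was 0.31 ± 0.19 (SE), its interval -0.12 to 0.73, its unadjusted p 0.14 and its adjusted p 1.0. In FPKM the groups overlapped here too, with 3.96 FPKM in transgenic library 2 and 4.30 FPKM in wild-type library 1. The separation of slc2a8 and slc2a12 thus depended on the scaling: with the library total alone, neither was separated, while with DESeq2's size factors 2 entries stayed higher in every transgenic library. Transgenic library 2 had a TMM factor of 0.848, against 0.967 to 1.07 in wild-type libraries.

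slc2a10 and slc2a6 were low. slc2a10, whose human counterpart is mutated in arterial tortuosity syndrome, had 1.94, 1.599 and 1.47 CPM in transgenic libraries, against 2.23, 2.23 and 1.47 CPM in wild-type libraries. The lowest libraries of the groups coincided, and the log2 fold change was -0.26 ± 0.32 (SE). slc2a6, whose mammalian counterpart is a lysosomal carrier, had 1.098, 0.846 and 0.778 CPM in transgenic libraries, against 0.982, 0.923 and 0.669 CPM in wild-type libraries. Its groups overlapped at 5 to 13 counts per library, and its coefficient of variation over the libraries, 17.2%, was below the 31.9% that counting error alone gives for a gene at this depth.

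The largest difference in size among the 17 entries was that of the SLC2A13 entry on chromosome 16. SLC2A13 encodes a proton-coupled myo-inositol carrier, most abundant in the brain in mammals. The table lists 2 genes under this name. The first, ENSDARG00000087867, lies on the minus strand at chr16:3831873-3907062 of Zv9, has the longest exon length of the entries (6821 bp) and had 60, 53 and 50 counts in transgenic libraries, against 74, 90 and 81 in wild-type libraries. In CPM these were 5.07, 4.98 and 4.32 in transgenic libraries, against 6.61, 6.92 and 10.8 in wild-type libraries. Every transgenic library was below every wild-type library, also in FPKM, and wild-type library 3 stood above the others. Means were 4.79 ± 0.407 CPM in transgenic livers and 8.12 ± 2.36 CPM in wild-type livers (SD, n = 3 each). The log2 fold change was -0.75 ± 0.26 (SE), a fold of 0.595 with an interval of 0.399 to 0.888. The unadjusted p was 0.016 and the adjusted p 1.0 in edgeR, so the difference did not pass the test. Without wild-type library 3 the log2 fold change was -0.50 (unadjusted p = 0.062 in edgeR), and without transgenic library 3 it was -0.68 (unadjusted p = 0.059 in edgeR).

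Wild-type library 3 was also the highest for markers of the eye and nervous system. The 10 marker entries took 0.00565%, 0.00447% and 0.00815% of the counts in transgenic libraries, against 0.00697%, 0.0078% and 0.0179% in wild-type libraries. No marker was at 0 in all libraries, and 5 of 10 were highest in wild-type library 3. Their log2 fold changes were negative for 9 of 9 tested, with a median of -0.61 and none at an unadjusted p below 0.05 in edgeR. stmn1b, a neuronal microtubule regulator, had 7.09, 10.3 and 18.2 CPM in transgenic libraries, against 10.9, 18.6 and 52.9 CPM in wild-type libraries. elavl3, an RNA-binding protein gene of neurons, had 15.2, 15.0 and 21.8 CPM in transgenic libraries, against 17.7, 19.5 and 42.8 CPM in wild-type libraries. Unlike SLC2A13 on chromosome 16, these markers overlapped between the groups, with transgenic library 3 above wild-type library 1. The part of nervous tissue in the SLC2A13 difference was not tested.

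**Figure D4:**
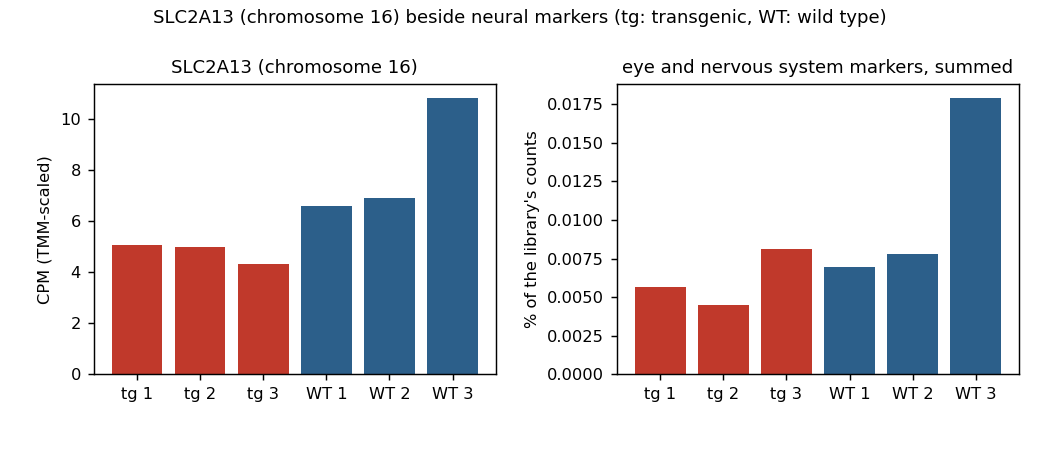
Left, TMM-scaled CPM of SLC2A13 on chromosome 16; right, the share of each library's counts taken by 10 eye and nervous system marker entries; foxn3-transgenic libraries (red) stand left of wild-type libraries (blue). Wild-type library 3 is the highest in both panels, at 10.8 CPM and 0.0179% of counts.

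The second SLC2A13 entry, ENSDARG00000076899 on chromosome 25, had 5.57, 3.39 and 4.93 CPM in transgenic libraries, against 3.57, 5.15 and 4.02 CPM in wild-type libraries. These values were intermixed, with a log2 fold change of 0.12 ± 0.28 (SE). In FPKM the chromosome 25 entry was above the chromosome 16 entry in 6 of 6 libraries. The ratio was 4.15, 2.57 and 4.31 in transgenic libraries, against 2.04, 2.81 and 1.40 in wild-type libraries, and these overlapped between the groups. The sources used here do not give how reads shared by such copies were counted, so levels of same-named entries and of the a and b pairs carry that uncertainty.

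slc2a5, whose mammalian counterpart is the fructose carrier of intestine and kidney, was the most abundant of its class. It had 6.502, 8.37 and 5.36 CPM in transgenic libraries, against 8.75, 10.8 and 5.22 CPM in wild-type libraries. The lowest and the highest library were both wild type, and the log2 fold change was -0.31 ± 0.30 (SE). Leaving out 1 library at a time moved this estimate between -0.53 (wild-type library 3 out) and -0.06 (wild-type library 2 out). Wild-type library 2 was also the highest for all 5 intestinal marker entries. These took 0.0588%, 0.0478% and 0.0528% of the counts in transgenic libraries, against 0.0443%, 0.145% and 0.0431% in wild-type libraries. Of the 5, 4 had a negative log2 fold change, with a median of -0.39. In edgeR 1 of the 5 had an unadjusted p below 0.05, beside 2.25% of all genes tested, with 0 past the adjusted threshold. That entry, fabp6, had 0.338, 1.22 and 0.519 CPM in transgenic libraries, against 2.86, 150 and 3.48 CPM in wild-type libraries. Kidney markers also took their highest share in wild-type library 2, 0.0193%, but only 2 of the 7 kidney entries were highest there. The most abundant kidney entry, cdh17, had 134 CPM in that library, against 19.8 to 45.3 CPM in the others. Skeletal muscle markers, at 0.0808%, and skin markers, at 0.285%, took their highest share in wild-type library 2 as well. The high share was thus not particular to intestine and kidney. The part of these tissues in the slc2a5 level was not tested. slc2a9l1 is named after slc2a9, which encodes a urate carrier in humans. It had 1.27, 0.846 and 1.21 CPM in transgenic libraries, against 1.43, 0.923 and 1.47 CPM in wild-type libraries, at 9 to 16 counts each, with a log2 fold change of -0.17 ± 0.38 (SE).

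The slc2a11 and slc2a15 genes are known from medaka, where slc2a11b and slc2a15b are needed for yellow and white pigment cells. In larval liver libraries these were among the least abundant and most variable members. slc2a11b had 2.45, 0.470 and 1.38 CPM in transgenic libraries, against 1.88, 1.54 and 0.535 CPM in wild-type libraries. slc2a15b had 2.87, 1.505 and 1.56 CPM in transgenic libraries, against 2.14, 2.0003 and 0.937 CPM in wild-type libraries. For both genes transgenic library 1 was the highest, and wild-type library 3 was low. slc2a15a had 1.52, 0.376 and 0.778 CPM in transgenic libraries, against 1.52, 1.38 and 0.803 CPM in wild-type libraries. slc2a11l had 2.79, 1.22 and 1.82 CPM in transgenic libraries, against 1.61, 1.69 and 1.07 CPM in wild-type libraries. The groups overlapped for all 4 genes. Their log2 fold changes were 0.08 ± 0.59 for slc2a11b, 0.19 ± 0.41 for slc2a15b, -0.48 ± 0.51 for slc2a15a and 0.39 ± 0.39 for slc2a11l (SE), each with an interval that includes 0. A further gene, slc2a11a by the reference table and under a clone name in the deposited one, had a log2 fold change of 0.46 ± 0.49 (SE).

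A list of pigment cell genes, written after the member values had been seen, took 0.017%, 0.0101% and 0.0137% of the counts in transgenic libraries, against 0.0152%, 0.0161% and 0.0104% in wild-type libraries. Transgenic library 1 was the highest, and transgenic library 2 and wild-type library 3 were the lowest, which were also the lowest 2 libraries for slc2a11b. The sum is carried by its most abundant entries, zgc:100919, PMEL and kita, and single entries went other ways. Of its 19 entries, 6 were highest in wild-type library 2 and 3 in wild-type library 3, and 0 were at 0 in all libraries. The 3 highest in wild-type library 3, picked out after their values were seen, were gch2, pax7a and pax7b. Other entries peaked elsewhere, such as aox3 in transgenic library 1 (2.79 CPM, against 1.74 in wild-type library 3). Likewise csf1ra was highest in wild-type library 2 (8.69 CPM, against 6.29 in wild-type library 3). For gch2, CPM was 2.36, 4.23 and 4.32 in transgenic libraries, against 4.64, 4.08 and 5.22 in wild-type libraries, with transgenic library 1 the lowest. The part of pigment cells in these levels was not tested.

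The highest and lowest values of the entries were spread unevenly over the libraries. Transgenic library 1 was the highest of the 6 for 8 of the 17 entries and the lowest for 0. Among these 8 were low entries such as slc2a6 and slc2a15a, where counting error gives 31.9% and 28.9%. The same counts were not taken over all genes. Transgenic libraries 2 and 3 and wild-type library 3 were each the lowest for 5 entries. The coefficient of variation of CPM over the 6 libraries was 57.7% for slc2a1a, where counting error gives 27.1%, and 55.9% for slc2a11b, where counting error gives 25.1%. It was smallest for slc2a12, at 13.0%.

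**Figure D5:**
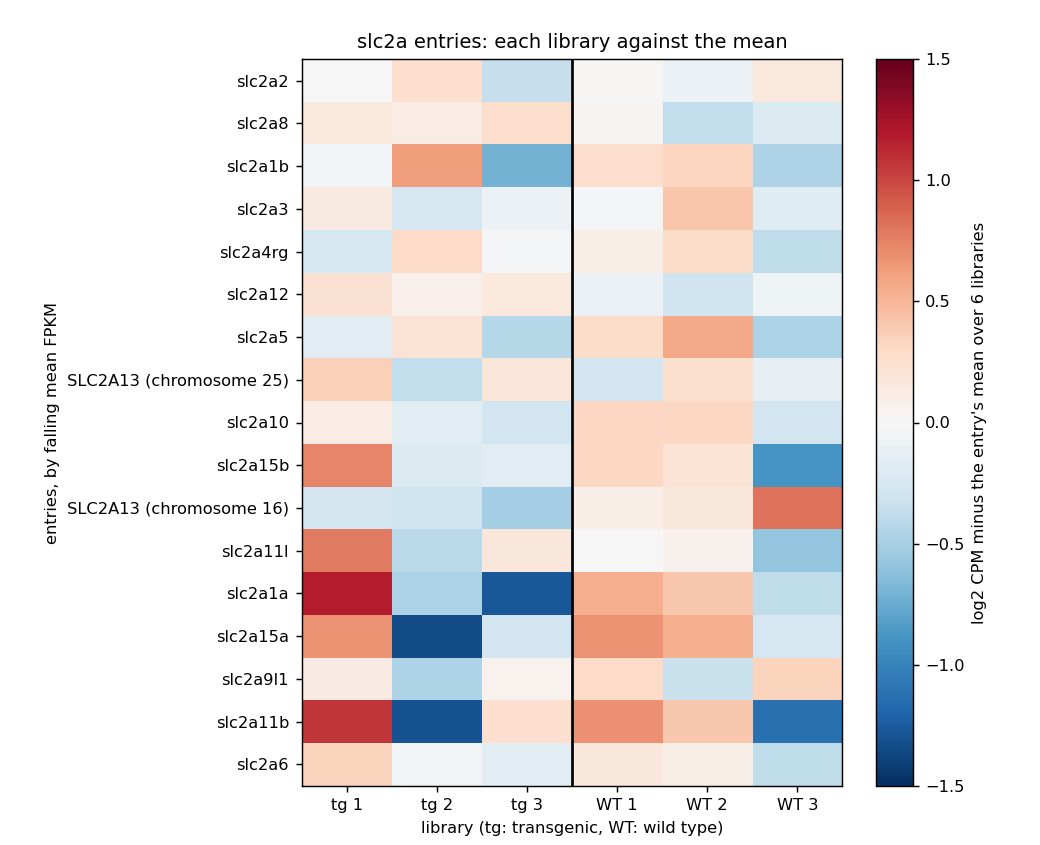
Log2 CPM of each slc2a entry in each library minus the entry's mean over the 6 libraries, with transgenic libraries left of the black line and wild-type libraries right of it, and entries in order of falling mean FPKM. The strongest colours lie among the low entries slc2a1a, slc2a15a and slc2a11b, with transgenic library 1 above their mean and transgenic library 2 below it. slc2a1a was lowest in transgenic library 3 (-1.27, against -0.473 in transgenic library 2), and slc2a11b was also low in wild-type library 3 (-1.12).

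The 17 entries lie on 12 chromosomes. Chromosome 23 holds 4 of them, slc2a4rg, slc2a1a, slc2a5 and slc2a12, and the closest pair there is slc2a1a and slc2a5, 403 kb apart in Zv9. The other gaps between successive entries there were 7651 kb and 8920 kb. These 4 entries did not all share a direction. The log2 fold change was positive for slc2a12 (0.31) and negative for slc2a4rg, slc2a1a and slc2a5 (-0.01, -0.08 and -0.31), with intervals that all include 0. Both genes of the closest pair were thus negative. No other gene of the table overlaps a member.

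Genes that act beside the transporters were taken from 6 lists, and none of their tested genes passed an unadjusted p of 0.05 in edgeR. Of 10 genes that phosphorylate or release glucose, 5 had a positive and 5 a negative log2 fold change, with a median of 0.01. The most abundant were g6pca, the glucose-6-phosphatase that frees glucose in hepatocytes (0.10 ± 0.32, SE), slc37a4a, which carries glucose 6-phosphate into the endoplasmic reticulum (-0.08 ± 0.22), and gck, the glucokinase that traps glucose after entry by GLUT2 (-0.62 ± 0.49). Of 6 sodium-coupled sugar carriers, 4 were positive and 2 negative, with a median of 0.14. The intestinal glucose carrier slc5a1 had 39.8, 10.2 and 18.2 CPM in transgenic libraries, against 12.0, 51.3 and 6.69 CPM in wild-type libraries, again with its highest value in wild-type library 2.

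Of 41 genes of transporter trafficking and control, 23 were positive and 18 negative, with a median of 0.05. hnf4a, a hepatocyte transcription factor, and RAB10, a GTPase that in mammals moves GLUT4 vesicles to the surface, had log2 fold changes of 0.05 ± 0.24 and 0.26 ± 0.17 (SE). txnipa is a counterpart of mammalian TXNIP, which promotes removal of GLUT1 from the cell surface. It averaged 92.2 ± 30.4 CPM in transgenic livers and 147 ± 69.2 CPM in wild-type livers (SD, n = 3 each). Its log2 fold change, -0.68 ± 0.37 (SE), did not pass the test.

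Of 14 genes of fructose, galactose and polyol handling, 12 were positive and 2 negative, beside 50.6% positive of all genes tested. Their median was 0.10, against 0.004 over all genes tested. In TMM-scaled CPM, 10 of the 14 were highest in transgenic library 2, which had a TMM factor of 0.848. This was not particular to the list. Transgenic library 2 was also the highest for 7 of 8 hepatocyte markers and 8 of 15 urate genes, but for only 7 of 41 trafficking and control genes. The enzymes of the polyol pathway, sord (log2 fold change 0.08 ± 0.22, SE) and akr1b1 (0.34 ± 0.25), did not pass the test. Of 15 urate genes, 7 were positive and 8 negative, and uox, which encodes urate oxidase, had a log2 fold change of 0.24 ± 0.25 (SE). Of 5 tested inositol genes, 4 were positive and 1 negative, and miox, the enzyme that opens the inositol ring, had a log2 fold change of -0.04 ± 0.24 (SE).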

How the data were processed

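RNA-seq of 3 foxn3-transgenic and 3 wild-type libraries was used as deposited, grouped by the titles. Reads of 50 bp were single-end, from a stranded total RNA kit, per the labels' protocols. Novoalign, DESeq2 and the Zv9 assembly are named in the submitters' processing notes, with no versions. The authors counted alignments overlapping a gene by at least 1 bp, and these counts are unnormalized, per the file headers. No source used here says whether counting used strand. The deposited FPKM values are counts per exon length and library total. Recomputed from the counts, they implied library totals 0.088% to 0.16% above the table's sums, by 1 factor per library. The deposited log2 ratios and scores (10 times the negative log10 of an adjusted p) are the authors' DESeq2 comparison, quoted only as such, per the file headers.

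Differences were tested in R 4.3.3 with edgeR 4.0.16 (TMM, filterByExpr by group, glmQLFit, glmQLFTest), transgenic minus wild type, two-sided, with no covariate and Benjamini-Hochberg adjustment over 19573 genes at 0.05. Intervals are 95%. Expected counting error is the Poisson coefficient of variation at the mean count. Alternatives were DESeq2 1.42.0, limma 3.58.1 on log2(FPKM + 0.1 or 1), other scalings, no filter, a replicate block and leaving out each library. The test was tried on simulated counts, as a check of the code only. Every simulated gene had the same set variability, so this does not show what the test can detect in these libraries. Members, 6 companion lists and 11 marker lists were chosen with earlier results of these data known. Named genes are all members, foxn3 and, from each list, genes of highest FPKM or an unadjusted p below 0.05. Newer symbols came from a reference table, which matched 16 of the 17 IDs. Total counts of 7732478 to 12550954 limit the low members. Sequences were not used here.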

Additional observations from a re-analysis of the deposited data

How the results depend on the processing

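Under 13 alternatives no slc2a entry reached an adjusted p below 0.998, and 8 of the 17 entries kept their sign in all of them. SLC2A13 on chromosome 16 stayed negative, from -0.87 to -0.50 with 1 library left out, at an unadjusted p from 0.0129 to 0.0617, below 0.05 in 11 of 13. With 1 library left out, 9 entries changed sign: slc2a2 (-0.21 to 0.11), slc2a1b (-0.43 to 0.25), slc2a3 (-0.27 to 0.04), slc2a4rg (-0.17 to 0.14), SLC2A13 on chromosome 25 (-0.04 to 0.30), slc2a15b (-0.19 to 0.37), slc2a1a (-1.10 to 0.32), slc2a11b (-0.55 to 0.47) and slc2a6 (-0.11 to 0.16). slc2a6 was -0.00 with the library total alone, and slc2a11b was -0.01 with limma on log2(FPKM + 0.1). The cause was not tested. The members' median ran from -0.19 to 0.11 with 1 library left out, and was -0.11 with the library total alone, where the median of all genes was -0.05.

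The count of members at an unadjusted p below 0.05 was 0 to 1 with 1 library left out, and 0 without wild-type library 3 or transgenic library 3. Over all genes that count was 238 to 801, against 441: it was 801 when wild-type library 1 was left out, 709 for wild-type library 2 and 238 for transgenic library 3. Genes called higher numbered 0 with all libraries, 1 with DESeq2 (foxn3, 2.73), and 0 to 1 with 1 library left out, where foxn3 ran from 2.50 to 3.11 and was called without wild-type library 3. With the library total alone, chosen after seeing the data, 0 members lay higher in every transgenic library, and with DESeq2's size factors, also chosen then, 2 did, as in TMM-scaled CPM.

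The labels number the libraries 1 to 3 in each group. Same-numbered libraries correlated by 0.344, -0.107 and 0.156 in their deviations from the group means. Differently numbered libraries correlated by -0.327 to 0.194. With 3 libraries per group, these values cannot decide whether the numbers pair libraries. With a replicate block 1 gene was called higher (foxn3, 2.81), slc2a4rg was 0.00, and no slc2a entry was called. Genes at an unadjusted p below 0.05 in edgeR numbered 637 with the block, against 441 without it.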

Other observations

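Within the slc2a15 and slc2a11 pairs the levels were compared in each library. In FPKM slc2a15b was above slc2a15a in 6 of 6 libraries, by 1.02-fold to 3.48-fold, while slc2a11b was above slc2a11l in 1 of 6. These orders rest on few counts, such as 7 for slc2a15b against 6 for slc2a15a in wild-type library 3. Counting error at the mean count was 21.9% for slc2a15b, 28.9% for slc2a15a, 25.1% for slc2a11b and 22.8% for slc2a11l. slc2a3b, outside the naming rule, had a log2 fold change of 0.00 ± 0.44 (SE, transgenic over wild type).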
